A study of Mus musculus with 6 samples.

Results

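The transcripts described here are 9 markers of tissue-resident macrophages, Mrc1, Stab1, Cd163, Lyve1, Vsig4, Timd4, Folr2, F13a1 and Cbr2. They were chosen by gene symbol from the 17469 genes of the expression table, and all 9 were present in it. Of the 9, 7 had enough counts to be tested and 2, Vsig4 and Lyve1, did not.

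RNA was sequenced from tdTomato+ cells that were sorted by flow cytometry from cultured bone marrow stromal cells (BMSCs) of 6-month-old mice. Control libraries (n = 3) came from Ocn-Cre;Ai9 animals and mutant libraries (n = 3), named TgAPPsweOCN here, from TgAPPswe;Ocn-Cre;Ai9 animals. Both genotypes therefore carried the osteocalcin-driven Cre and the Ai9 reporter, which makes tdTomato once Cre has removed a stop cassette. Cells of the mutant also carried human APP with the Swedish mutation, made from the CAG promoter after the same recombination. The osteocalcin promoter acts mainly in mature cells of the osteoblast (OB) lineage. How many mice gave each library is not given in the sources used here, so p-values measure the spread between libraries. Library totals were 19340810 to 22037840 estimated counts.

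Resident macrophages live in most tissues, bone marrow included, where they take up dying cells, glycoproteins, iron-bearing proteins and matrix fragments through scavenger receptors. Most of the 9 markers are such receptors on the cell surface. Several are used to tell these cells from macrophages that have newly come from blood monocytes, but F13a1 is made by monocytes as well. In culture, macrophages attach to plastic together with stromal cells and depend on signalling through Csf1r.

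The labels name bone marrow stromal cells of the osteoblast lineage, and the macrophage transcripts were at far higher levels than the osteoblast transcripts in every library. Levels are given as FPKM, fragment counts scaled to transcript length and sequencing depth, which can be set side by side between genes. In controls the 12 pan-macrophage markers had a median level of 1050 FPKM and the 19 stromal and osteoblast-lineage markers one of 1.44 FPKM. Osteocalcin itself, Bglap, stood at 0.857 ± 0.461 FPKM in control and 0.273 ± 0.25 in TgAPPsweOCN libraries (mean ± SD, n = 3 each), with 0 to 10 counts per library and reads shared with its near copies. The summed stromal list was 236 to 271 FPKM in control and 190 to 264 in TgAPPsweOCN. Mouse App, the endogenous counterpart of the human transgene, stood at 275 to 281 FPKM in control and 325 to 333 in TgAPPsweOCN libraries. Reads of the human transgene were not counted on their own.

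Mrc1, Stab1, Cd163, Folr2 and F13a1 all fell in TgAPPsweOCN cells. Their mean FPKM in control was between 2.57-fold (Folr2) and 6.04-fold (Mrc1) that in TgAPPsweOCN. In FPKM their control libraries did not overlap the mutant ones, and neither did those of Timd4 and Vsig4. How many of all genes share this was not counted, so it does not set these markers apart. A gene was called where the quasi-likelihood test of edgeR gave an adjusted p of at most 0.05 and the log2 fold change, mutant over control, was at least 1 in size. By that rule 5 of the 7 tested markers fell and 0 rose, beside 9.2% of the 12701 tested genes that fell and 8.9% that rose. On adjusted p alone the same 5 markers were lower and 0 higher, beside 31.5% and 32.5% of all tested genes. Cbr2 and Timd4 passed neither rule. The median log2 fold change of the 7 markers was -1.58, and that of all tested genes was -0.02. With scaling by library size alone, 1732 genes fell and 846 rose where the trimmed-mean scaling gave 1169 and 1130. The median of all genes then moved to -0.23, and the 5 markers still fell. In cells sorted in bulk, fewer cells of a type and less RNA per cell cannot be told apart.

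**Figure D1:**
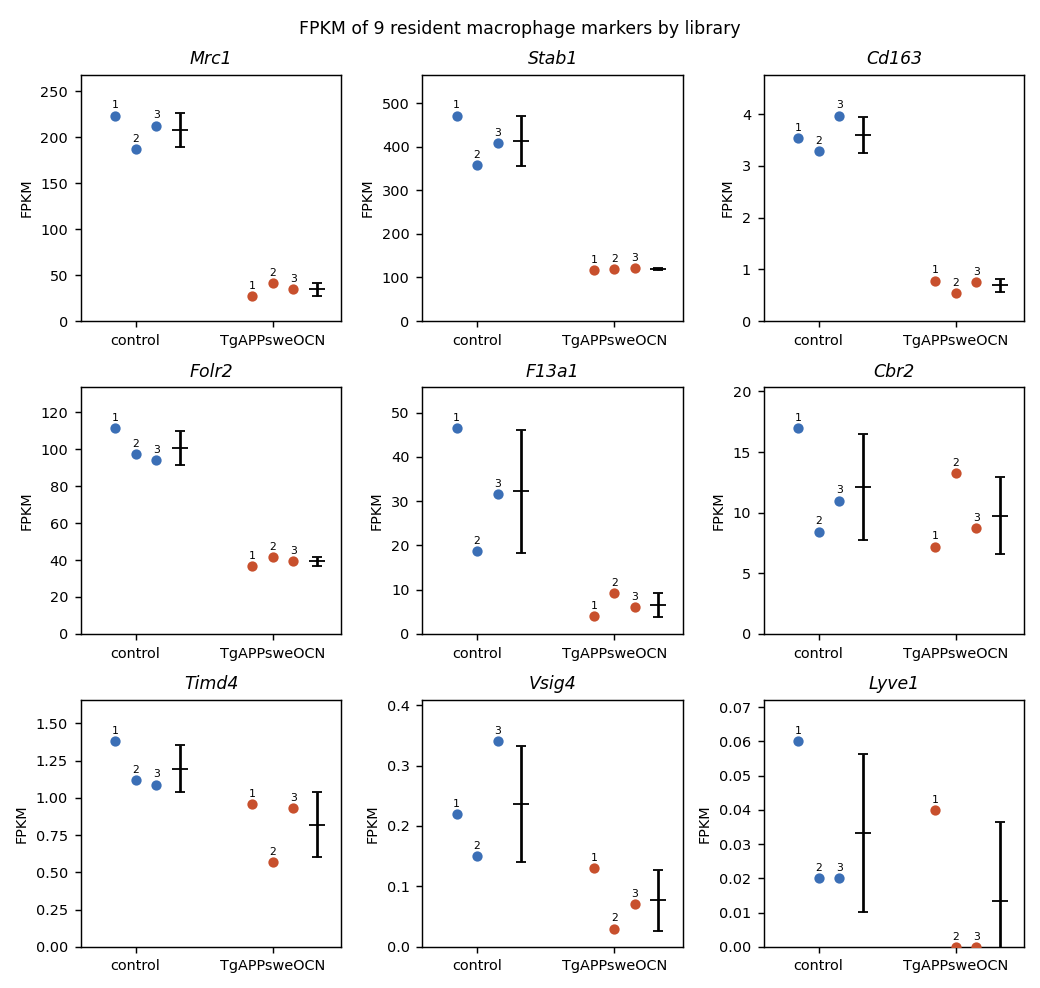
Level of each of the 9 markers in FPKM (vertical axis, linear, from 0, scaled per panel) in the 3 control (blue) and 3 TgAPPsweOCN (orange) libraries. Numbers are the replicate numbers, horizontal bars the means and whiskers 1 SD. For Mrc1, Stab1, Cd163, Folr2, F13a1, Timd4 and Vsig4 every control point lies above every TgAPPsweOCN point, while the points of Cbr2 and Lyve1 interleave.

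Sequences upstream of the gene starts are shown for 5 of the markers, so that the most abundant (Mrc1, Stab1), a falling marker with no searched motif (Cd163), the most variable falling marker (F13a1) and one near the detection floor (Vsig4) can be read side by side. Each line holds the 250 bases before an annotated start, 5′ to 3′ on the strand of the gene, from the RefSeq promoter table of GRCm38.p6, which has the coordinates of the mm10 build named in the submitters' processing notes. Capitals mark matches, on either strand, to the PU.1 core, which reads GAGGAA, or to the MAF core, which reads TGCTGA. In the Mrc1 window the matches are on the other strand.
Mrc1: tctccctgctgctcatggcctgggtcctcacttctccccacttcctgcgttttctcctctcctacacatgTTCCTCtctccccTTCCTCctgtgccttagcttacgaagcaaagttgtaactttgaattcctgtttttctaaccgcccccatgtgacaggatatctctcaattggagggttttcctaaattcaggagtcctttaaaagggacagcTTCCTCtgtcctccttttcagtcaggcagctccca
Stab1: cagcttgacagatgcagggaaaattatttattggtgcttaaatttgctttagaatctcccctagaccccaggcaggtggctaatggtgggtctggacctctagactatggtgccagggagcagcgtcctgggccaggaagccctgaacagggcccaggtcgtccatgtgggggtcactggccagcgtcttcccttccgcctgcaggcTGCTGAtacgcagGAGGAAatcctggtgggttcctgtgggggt
Cd163: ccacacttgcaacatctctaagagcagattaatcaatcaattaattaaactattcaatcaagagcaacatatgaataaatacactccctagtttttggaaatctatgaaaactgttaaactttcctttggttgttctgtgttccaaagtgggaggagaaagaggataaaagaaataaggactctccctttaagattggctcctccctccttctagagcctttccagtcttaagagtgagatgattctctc
F13a1: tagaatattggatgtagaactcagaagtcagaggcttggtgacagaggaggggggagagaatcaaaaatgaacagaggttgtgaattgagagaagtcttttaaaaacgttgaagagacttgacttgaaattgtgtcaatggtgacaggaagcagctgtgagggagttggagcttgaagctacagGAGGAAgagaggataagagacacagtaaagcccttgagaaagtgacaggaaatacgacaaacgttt
Vsig4: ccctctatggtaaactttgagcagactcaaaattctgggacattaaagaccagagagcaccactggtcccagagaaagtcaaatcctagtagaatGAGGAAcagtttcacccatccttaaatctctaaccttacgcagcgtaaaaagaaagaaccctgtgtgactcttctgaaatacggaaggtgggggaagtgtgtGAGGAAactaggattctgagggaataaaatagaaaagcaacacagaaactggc
The windows are chr2:14229164-14229413 (plus strand), chr14:31168642-31168891 (minus strand), chr6:124304401-124304650 (plus strand), chr13:37050245-37050494 (minus strand) and chrX:96293439-96293688 (minus strand).

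PU.1, made from Spi1, is the factor that macrophages need to form, and MAF proteins are known from the upkeep of resident macrophages. The Mrc1 window holds 3 copies of the PU.1 core, which begin 180, 167 and 35 bases before the start. In the Stab1 window there is 1 copy of the PU.1 core, at 30 bases, and 1 MAF core, at 43 bases. F13a1 has 1 PU.1 core at 66 bases and Vsig4 has 2, at 155 and 53 bases. The letters of the PU.1 core occur in 5 of 10 windows of the markers, counting also Cbr2, and in 23.3% of all 32851 RefSeq windows of this length. The MAF core occurs in 4 of 10 windows, among them both of Folr2 and that of Timd4, and in 16.1% of all. AP-1 sites (TGANTCA) occur in 1 of 10, a second start of Folr2, and in 6.75% of all. The spacing read by STAT6 (TTCNNNNGAA) occurs in 0 of 10 and in 5.85% of all. No match overlaps another. Markers that fell and markers that did not both carry these letters, and Lyve1 has no entry in the table.

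Mrc1 (Entrez 17533, chromosome 2, 14229414 to 14332023 in GRCm38.p6) encodes the mannose receptor CD206, which clears mannose-bearing glycoproteins and collagen fragments. Its level was 223, 187 and 213 FPKM in control libraries 1 to 3 and 27.5, 41.2 and 34.5 FPKM in TgAPPsweOCN libraries 1 to 3. The lowest control library was thus well above the highest mutant library. Means were 208 ± 18.5 and 34.4 ± 6.83 FPKM (SD, n = 3 each). In the edgeR fit the log2 fold change was -2.38 (SE 0.133, 95% interval -2.69 to -2.08, adjusted p = 1.53e-06). Of all tested genes, 0.795% had a lower log2 fold change, and Mrc1 ranked 102nd among the falls.

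Stab1 (Entrez 192187, chromosome 14, 31139017 to 31168651) encodes stabilin-1, a scavenger receptor for the matrix protein SPARC and for modified lipoproteins. It was the most abundant of the 9 markers in both genotypes. Control libraries held 471, 358 and 409 FPKM, and TgAPPsweOCN libraries held 116, 119 and 121 FPKM. The mutant libraries were close to each other, with an SD of 2.7 around 119 FPKM, while the controls spread with an SD of 56.6 around 413. The fitted log2 fold change was -1.58 (SE 0.0981, edgeR adjusted p = 2.67e-06). Stab1 was the only marker with fractional counts, which arise where a read fits sequences of more than 1 gene. Stab2, its near relative on sinusoidal endothelium, stood at 0.31 FPKM in control and 0.0667 in TgAPPsweOCN.

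Cd163 (Entrez 93671, chromosome 6, 124304636 to 124330529) encodes the receptor that takes up haemoglobin bound to haptoglobin. Far less abundant than Mrc1, it was measured at 3.54, 3.29 and 3.97 FPKM in control and 0.78, 0.54 and 0.75 FPKM in TgAPPsweOCN libraries. Again no mutant library reached a control one. Its log2 fold change was -2.18 (SE 0.161, 95% interval -2.55 to -1.81, edgeR adjusted p = 6.91e-06), next in size to that of Mrc1.

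Lyve1 (Entrez 114332, chromosome 7, 110850607 to 110862953), the hyaluronan receptor of resident macrophages around vessels and of lymphatic endothelium, was at the limit of detection. It had 3, 1 and 1 counts in control and 2, 0 and 0 in TgAPPsweOCN libraries, at or under the floor of 3 counts (0.136 to 0.155 CPM, counts scaled to library total). The ratio of summed rates, mutant over control, was 0.358, with an exact interval of 0.0341 to 2.19 that covers counting error only. No difference was detectable at this depth.

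Vsig4 (Entrez 278180, X chromosome, 96247201 to 96293438), a complement receptor known from liver Kupffer cells, was also too low to test. Its counts were 6, 4 and 9 in control and 4, 1 and 2 in TgAPPsweOCN libraries. The highest mutant library equalled the lowest control library in counts. The rate ratio was 0.33 (exact interval 0.117 to 0.82, counting error only).

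Timd4 (Entrez 276891, chromosome 11, 46810786 to 46844333) encodes TIM-4, a phosphatidylserine receptor for dying cells that marks long-lived resident macrophages. Counts were 31, 29 and 36 in control and 40, 19 and 32 in TgAPPsweOCN libraries, and the groups overlapped. In FPKM the same libraries read 1.38, 1.12 and 1.09 against 0.96, 0.57 and 0.93, which do not overlap. The 2 deposited scales thus order the libraries differently for this gene. On the counts the log2 fold change was -0.02 (SE 0.303, 95% interval -0.71 to 0.68, edgeR adjusted p = 0.963).

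Folr2 (Entrez 14276, chromosome 7, 101839988 to 101857190) encodes folate receptor beta, a surface protein that binds folate. It was at 111, 97.4 and 94.0 FPKM in control and 36.9, 41.7 and 39.3 FPKM in TgAPPsweOCN libraries. All 3 mutant libraries lay far below the lowest control. The fall was the smallest of the 5, with a log2 fold change of -1.14 (SE 0.0786, 95% interval -1.32 to -0.96, edgeR adjusted p = 4.7e-06). In TgAPPsweOCN cells Folr2 stood above Mrc1 (39.3 ± 2.38 against 34.4 ± 6.83 FPKM), within the spread of the libraries, while in control Mrc1 was higher (208 ± 18.5 against 101 ± 9.18 FPKM).

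F13a1 (Entrez 74145, chromosome 13, 36867178 to 37050244) encodes the A subunit of coagulation factor XIII, which cross-links fibrin and is made by resident macrophages and monocytes. Its level was 46.4, 18.7 and 31.7 FPKM in control and 4.01, 9.30 and 6.10 FPKM in TgAPPsweOCN libraries. The groups did not overlap, but libraries of one genotype differed by up to 2.49-fold. With a log2 fold change of -2.11 its standard error was 0.362, the largest of the falling markers (95% interval -2.94 to -1.28, edgeR adjusted p = 0.000971).

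Cbr2 (Entrez 12409, chromosome 11, 120729485 to 120732025) encodes carbonyl reductase 2, an enzyme of resident macrophages and lung epithelium. It read 16.9, 8.43 and 11.0 FPKM in control and 7.19, 13.3 and 8.74 FPKM in TgAPPsweOCN libraries, and the groups overlapped. The log2 fold change of -0.10 had a 95% interval of -0.74 to 0.55 (edgeR adjusted p = 0.784). For both Cbr2 and Timd4 the estimate changed sign when single libraries were left out.

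**Figure D2:**
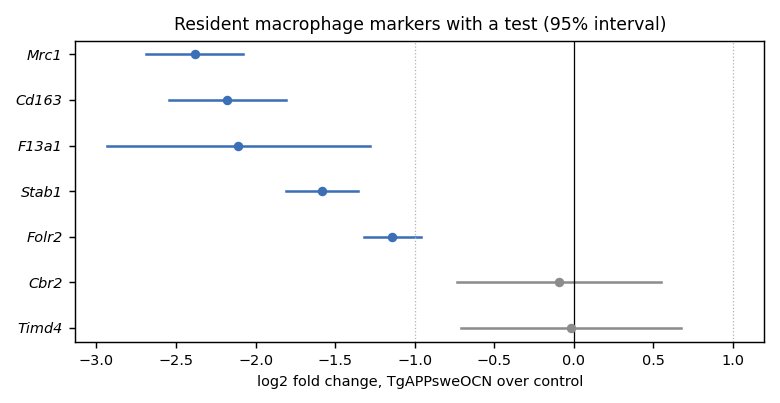
Log2 fold change, TgAPPsweOCN over control, of the 7 tested markers (points) with 95% intervals from the edgeR fit (lines). Blue marks those that fell and grey those not called. Dotted lines stand at 1 and -1. Mrc1 has the lowest estimate at -2.38, and the intervals of Cbr2 and Timd4 span 0.

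In order of FPKM, control cells held Stab1, Mrc1, Folr2, F13a1, Cbr2, Cd163, Timd4, Vsig4 and Lyve1. In TgAPPsweOCN cells the order was Stab1, Folr2, Mrc1, Cbr2, F13a1, Timd4, Cd163, Vsig4 and Lyve1. Neighbours whose libraries overlapped were Folr2 with Mrc1, Cbr2 with F13a1, Timd4 with Cd163 and Vsig4 with Lyve1 in TgAPPsweOCN, and none in control. Stab1 and Mrc1 together held 80.5% of the summed FPKM of the 9 markers in control and 72.8% in TgAPPsweOCN. The sum itself was 675 to 875 FPKM in control and 194 to 226 FPKM in TgAPPsweOCN libraries.

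The fall of Mrc1 was compared with the levels of transcripts that all leukocytes share. The 10 pan-leukocyte genes, among them Ptprc (CD45), took 0.858% to 0.899% of all counts in control and 1.36% to 1.39% in TgAPPsweOCN libraries, so their share was higher in the mutant. Per 10000 pan-leukocyte counts, Mrc1 had 1370, 1100 and 1270 counts in control and 104, 158 and 133 in TgAPPsweOCN libraries. On this scale the log2 difference was -3.25 for Mrc1, -3.05 for Cd163, -2.95 for F13a1, -2.43 for Stab1 and -2.0 for Folr2. Timd4 and Cbr2 each had -0.94, where the edgeR fit gave -0.02 and -0.1. The higher pan-leukocyte share in the mutant lowers every marker on this scale. The exact two-sided permutation test gave p = 0.2 for Cbr2 and p = 0.1, the smallest that 3 against 3 libraries allow, for the other markers (0.113 adjusted over the 9). For Lyve1 that value arose only through the 0.5 counts added before the log, since its ratios overlapped between genotypes, and nothing is read from it. Relative to the summed pan-macrophage markers, Mrc1 differed by -2.50 and Timd4 and Cbr2 by -0.19 each.

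Ratios of Mrc1 to single macrophage transcripts are given as a description, since the 3 partners were chosen after it was seen that they fell less than Mrc1. The FPKM ratio of Mrc1 to Stab1 was 0.474 to 0.523 in control and 0.237 to 0.345 in TgAPPsweOCN libraries. For Csf1r, the receptor of macrophage colony-stimulating factor, the ratio was 0.156 to 0.18 against 0.0687 to 0.122. For Cd68, a lysosomal protein of macrophages, it was 0.145 to 0.179 against 0.0601 to 0.0888. Trem2, Igf1 and Clec4n had lower log2 fold changes than Mrc1 (-2.71, -2.51 and -2.41 against -2.38).

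Libraries of one genotype were not alike in F13a1 and Cbr2. Both transcripts were highest in control library 1 and TgAPPsweOCN library 2 and lowest in control library 2 and TgAPPsweOCN library 1, and so was Mrc1, with a smaller range of 1.19-fold in control and 1.5-fold in TgAPPsweOCN. The summed neutrophil markers followed the same order, at 54.3, 13.6 and 30.4 FPKM in control and 19.1, 52.2 and 35.5 in TgAPPsweOCN libraries. Dendritic cell markers, nearly all Itgax, ran the other way, at 16.6, 41.5 and 30.0 FPKM and 18.9, 8.21 and 13.7 FPKM. The other tested markers did not share this order in full. Cd163 and Timd4 ran the other way in the mutant, highest in TgAPPsweOCN library 1 and lowest in library 2, and Cd163 was highest in control library 3. Stab1 was highest in TgAPPsweOCN library 3, and Folr2 was lowest in control library 3. Whether other cells in the sort had a part in these values was not tested. Among the neutrophil markers the defining Ly6g was at 0 in all control libraries, and only Camp rose (0.453 to 3.23 FPKM, log2 fold change 3.02, edgeR adjusted p = 0.00175).

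**Figure D3:**
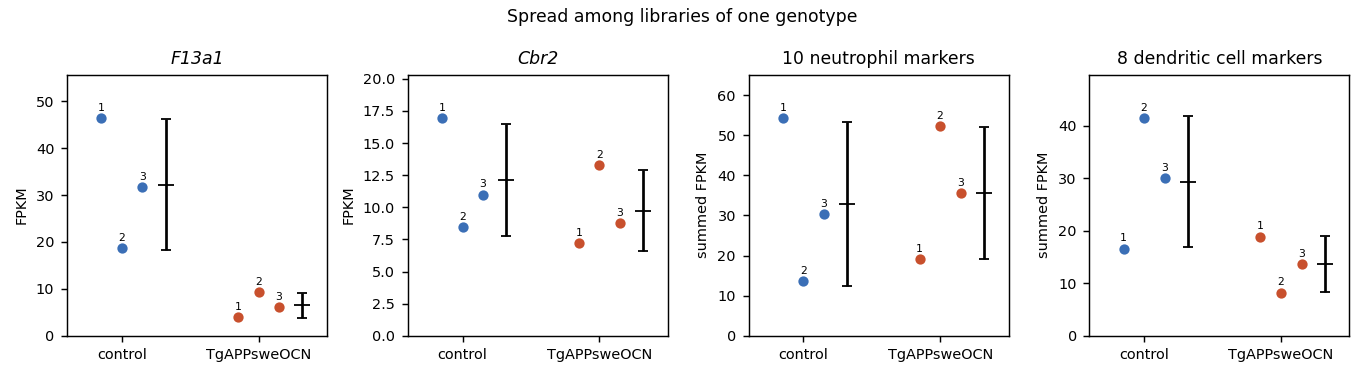
FPKM of F13a1 and Cbr2 and summed FPKM of the 10 neutrophil and 8 dendritic cell markers (vertical axes, linear, from 0) in each control (blue) and TgAPPsweOCN (orange) library, with mean and 1 SD. In F13a1, Cbr2 and the neutrophil markers, control 1 and TgAPPsweOCN 2 are the highest of their genotype. In the dendritic cell markers they are the lowest.

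The genes whose library values were most like those of Mrc1 came from all 10162 tested genes with a mean of at least 100 counts. Likeness was the root mean square difference of centred log2 CPM over the 6 libraries. Deptor, an inhibitor of mTOR, was nearest at 0.0997 and went from 4.53 ± 0.289 to 0.807 ± 0.136 FPKM. Next came Tmem150b at 0.116, Sncaip, which encodes the synuclein partner synphilin-1, at 0.127, and Peli2, a ubiquitin ligase of Toll-like receptor signalling, at 0.129. Peli2 went from 11.2 ± 0.381 to 1.89 ± 0.405 FPKM. Other markers of the set lay further away, with Cd163 at 0.366, F13a1 at 0.418, Stab1 at 0.603 and Folr2 at 0.9. Cbr2 and Timd4 were at 1.66 and 1.71.

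Other genes of resident macrophages moved in both directions. Of 37 listed, 35 were tested, 15 fell and 8 rose, with a median log2 fold change of -0.54, beside 9.2% and 8.9% of all tested genes. Those with the largest falls were Ccl24, an eosinophil chemokine, from 1.24 to 0.07 FPKM, Trem2, a lipid receptor, from 783 to 103 FPKM (log2 fold change -2.71), Igf1, a growth factor, from 106 to 16.0 FPKM (-2.51), and Clec4n, encoding dectin-2, from 140 to 22.6 FPKM (-2.41). Apoe, the most abundant, went from 13400 to 2460 FPKM (-2.23). Mertk, which like Timd4 serves the clearance of dying cells, had a log2 fold change of -1.39 and its ligand Gas6 one of -1.57, both falls.

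The 8 genes of this list that rose had diverse roles. Cd209g and Cd209f, C-type lectins with near copies and fractional counts, went from 1.11 to 276 FPKM and from 1.02 to 183 FPKM. Marco, a scavenger receptor of marginal zone and alveolar macrophages, went from 6.01 ± 1.33 to 231 ± 27.8 FPKM (log2 fold change 5.48, edgeR adjusted p = 9.07e-08). Cd38, an enzyme that uses NAD, rose by 4.19, on fractional counts. Cd5l, a secreted protein of resident macrophages, rose by 4.16 and Siglec1 (CD169), a sialic acid receptor of marrow and lymph node macrophages, by 2.42. Rises of Blvrb (1.09) and Ccl8 (1.18) did not reach the threshold when libraries were scaled by size alone (0.87 and 0.97). The 3 chains of complement C1q, C1qa, C1qb and C1qc, passed the adjusted p with log2 fold changes of -0.44, -0.54 and -0.46, short of the fold threshold.

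**Figure D4:**
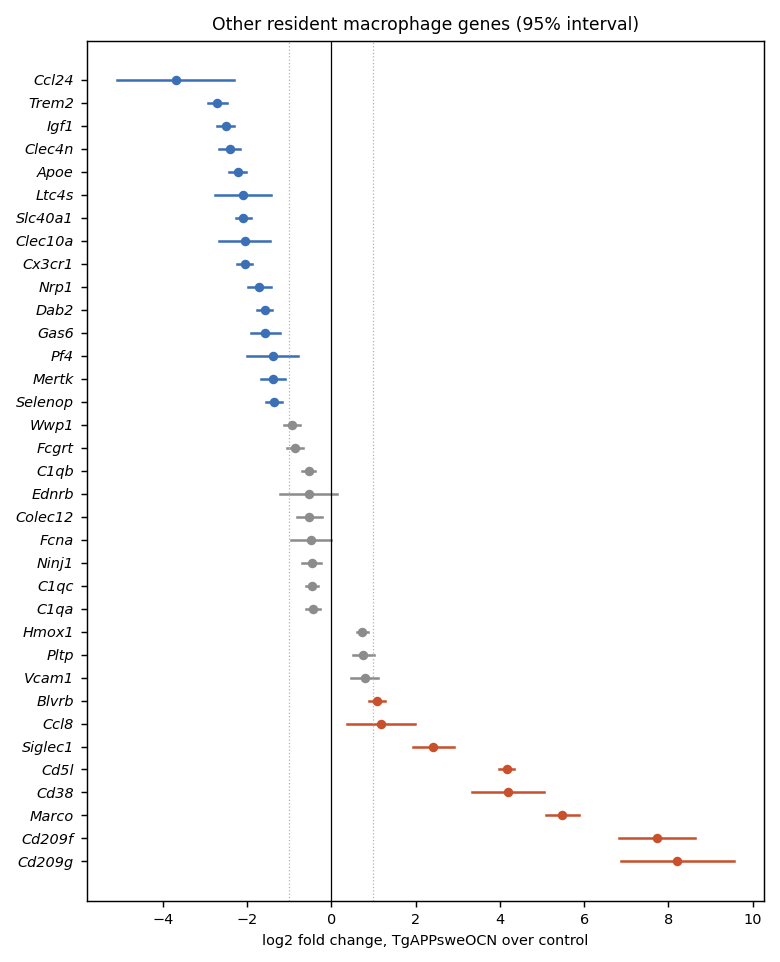
Log2 fold change, TgAPPsweOCN over control, of the 35 tested genes in a list of other resident macrophage genes (points) with 95% intervals (lines) from edgeR. Blue marks the 15 that fell, orange the 8 that rose and grey those not called, and dotted lines stand at 1 and -1. Trem2, at -2.71, and Marco, at 5.48, lie on opposite sides of 0.

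Among transcription factors of resident macrophages, 20 of 21 were tested, 9 fell and 2 rose (median log2 fold change -0.73). These counts, and those of the lists that follow, stand beside the 9.2% of all tested genes that fell and the 8.9% that rose. The largest falls were those of Irf4 (-2.46), Id3 (-2.07) and Cebpa (-1.99), among others. Cebpa, a factor of myeloid differentiation, went from 140 ± 9.17 to 30.4 ± 2.65 FPKM. Maf had 172 ± 15.2 and 261 ± 11.2 FPKM (log2 fold change 0.81), below the fold threshold. Spic, a factor of iron-recycling macrophages, rose by 2.36 and Nr1h3, the sterol-sensing receptor LXR alpha, by 1.97. Spi1, the source of PU.1, had a log2 fold change of 0.54, below the fold threshold.

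Mrc1 is a textbook target of interleukin-4, and genes with that response did not move as one. Of 16 listed, 9 were tested, 3 fell and 3 rose (median -0.29), and 7 were too low or absent. Mgl2, a lectin, went from 2.19 to 0.11 FPKM (log2 fold change -4.05, on fractional counts), and Mmp12, an elastase (-2.25), and Egr2 (-1.57) fell as well. Pdcd1lg2, a ligand of PD-1, rose from 2 to 3 counts per control library, at 0.0367 ± 0.0115 FPKM, to 0.577 ± 0.244 FPKM in TgAPPsweOCN. Il4ra, the receptor chain, rose by 1.03, and by 0.82 when libraries were scaled by size alone. Whether interleukin-4 had a part in the fall of Mrc1 was not tested.

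Growth factor and cytokine receptors of macrophages had 4 falls and 1 rise among 18 tested (median -0.65). Csf1r went from 1210 ± 22.1 to 370 ± 30.9 FPKM (log2 fold change -1.49, edgeR adjusted p = 1.21e-06), where Mrc1 had -2.38. Tgfbr1 (-1.53), Csf2rb (-1.16) and Ifngr1 (-1.10) fell as well, and Il4ra was the rise. The ligands Csf1 and Il34 did not pass the test (-0.35 and 0.18).

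Inflammatory genes of macrophages were mostly higher in TgAPPsweOCN than in control libraries. Of 22 tested, 18 rose and 1 fell, with a median log2 fold change of 3.15. Il6 went from 0.163 to 13.5 FPKM (log2 fold change 6.58), Acod1, which makes itaconate, from 1.25 to 94.8 FPKM (6.46), and Il1a from 0.197 to 10.4 FPKM (5.77). Il12b was at 1 count in all control libraries together and at 8.39 ± 6.46 FPKM in TgAPPsweOCN. Cd86, a co-stimulatory protein, was the fall (-1.61).

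Markers of other cells that such a sort could hold were read beside these results. Pan-leukocyte genes had 5 rises and 0 falls among 10 (median 0.98), led by Rac2 (3.03) and Arhgdib (1.54). With scaling by library size alone 2 rose, as Itgb2 (1.0), Vav1 (0.99) and Hcls1 (0.88) were no longer called. Pan-macrophage markers had 5 rises and 3 falls among 12 (median -0.11), with summed levels of 18500 to 19100 FPKM in control and 15100 to 18800 in TgAPPsweOCN. Their falls were Lgals3 (-1.79), Csf1r (-1.49) and Cd68 (-1.26), and their largest rises Aif1 (2.04) and Adgre1 (1.89). The most abundant, Lyz2, had a log2 fold change of -0.16.

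Monocyte markers had 2 rises and 2 falls among 10 tested (median 0.31). Spn (CD43) rose by 3.67, while Nr4a1 (-1.51) and Ccr2 (-1.48) fell. Of osteoclast markers, 4 of 8 tested rose and 1 fell. Mmp9 rose by 6.23, Acp5 by 3.12 and Tnfrsf11a, which encodes RANK, by 1.31, Ocstamp was at 1 count in all controls together and at 0.93 FPKM in TgAPPsweOCN, and Atp6v0d2 fell by 2.38. Of the stromal and osteoblast-lineage markers 17 were tested, 2 rose and 0 fell, where 8.9% of all tested genes rose. These were Dcn (3.92), a matrix proteoglycan, and Lum, at 1 count in all controls together and 0.767 FPKM in TgAPPsweOCN.

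Markers of vessels and platelets were low. The 11 endothelial markers summed to 6.68 to 9.15 FPKM in control and 6.04 to 6.95 in TgAPPsweOCN, where Stab2 (-1.97), Vwf (-1.92) and Egfl7 (-1.43) fell and Pecam1 rose by 1.03 (0.81 with scaling by library size alone). Megakaryocyte markers, of interest since platelets also hold F13a1, summed to 4.68 to 6.01 FPKM and 2.30 to 3.96 FPKM, with falls of Itgb3 (-1.58) and Gp1ba (-1.33). Of dendritic cell markers 3 were tested and 1, Xcr1, rose by 1.88. In the lymphocyte list 1 gene was tested, Cd79b, which rose by 1.75, and Cd3e was at 0 to 2 counts per library. The erythroid list gave 1 tested gene, Epor, which fell by 1.06, with Hba-a1 at 0 to 1 count. In the mast cell and basophil list, Kit was tested and not called (0.45). What part any of these cells had in the values of the 9 markers was not tested.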

How the data were processed

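RNA from 6 libraries of sorted tdTomato+ cells (3 Ocn-Cre;Ai9, 3 TgAPPswe;Ocn-Cre;Ai9) was sequenced by the study on a DNBSEQ platform. Ribosomal, low-quality and adaptor reads were removed and the clean reads mapped with HISAT2. The submitters' processing notes list HISAT2 2.0.4, Bowtie2 2.2.5, RSEM 1.2.12, DESeq2 1.4.5 and mm10. The expression table deposited by the authors pairs an estimated count with an FPKM value (2 decimals) per gene and library. Fractions occurred in 13.3% to 14.4% of genes. A second deposited table holds the authors' own log ratios and p-values and was not used.

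The test had been planned for whole counts, so estimated counts were rounded. They were fitted with edgeR 4.0.16 in R 4.3.3 (filterByExpr, TMM scaling, quasi-likelihood test, ~ genotype, Benjamini-Hochberg adjustment over 12701 genes). Calls needed an adjusted p of at most 0.05 and an absolute log2 fold change of at least 1, the thresholds in the study's methods. FPKM served for levels only. Fold changes of low genes depend on the prior count. The procedure was tested on simulated data. Library totals of 19340810 to 22037840 counts put the floor of 3 counts at 0.136 to 0.155 CPM. Single-ratio comparisons used exact permutation tests (scipy 1.17.1). Intervals on counts cover counting error only. Replicate numbers of the libraries did not pair them.

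All 9 markers are named. From each other list the text names up to 4 called genes per direction by size of log2 fold change and the most abundant gene of a cell type list, together with the genes most like Mrc1. Some genes that this rule selects are not reported here. Genes outside this rule (Bglap, App, Mertk, Gas6, C1qa, C1qb, C1qc, Maf, Spi1, Csf1, Il34 and others given for their role or for a sign of other cells) were named with their values known. The markers and all lists were chosen with earlier results of these data known. Gene positions and promoter windows are from RefSeq (GRCm38.p6), which held 10 windows for 8 of the 9 markers. Up to 28 bases of a printed window lie in an annotated exon. Alternatives were DESeq2 1.42.0, limma 3.58.1 on log2(FPKM + 1) and log2(FPKM + 0.1) for genes with a mean of at least 0.5 FPKM, RLE scaling, library size alone, other filters, a replicate block and leaving out each library.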

Additional observations from a re-analysis of the deposited data

How the results depend on the processing

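The 5 markers that fell kept their direction and their side of the thresholds, and Cbr2 and Timd4 stayed uncalled, in every alternative run (DESeq2, other scalings and filters, limma on FPKM, the replicate block, each library left out). The log2 fold change ranged from -2.61 to -2.25 for Mrc1, -1.80 to -1.48 for Stab1, -2.40 to -1.44 for Cd163, -1.36 to -1.07 for Folr2 and -2.45 to -1.75 for F13a1. Timd4 changed sign to 0.07 without control 3 and 0.24 without TgAPPsweOCN 2 (range over single libraries left out -0.27 to 0.24). Over all alternatives it ranged from -0.52, with limma on log2(FPKM + 0.1) (adjusted p = 0.0695), to 0.24, with adjusted p from 0.0613 to 0.988. Cbr2 changed sign to 0.22 without control 1 and 0.07 without TgAPPsweOCN 1 (range -0.36 to 0.22, adjusted p 0.27 to 0.966). Among all genes, rises numbered 593 with limma on log2(FPKM + 1) and 706 on log2(FPKM + 0.1), and the cause was not tested. With adjusted p alone there were 4122 rises and 4007 falls, since the fold threshold was dropped. Leaving out single libraries gave 1103 to 1150 rises and 1125 to 1262 falls. With replicate number as a block, 1115 genes rose and 1147 fell and the markers had 5 falls. Same-numbered libraries correlated at 0.0127, 0.00664 and 0.141 in their deviations from the genotype means, not every library correlated best with its own number, and the numbers were not taken as a pairing. Scaling by library size alone moved the list counts of other resident macrophage genes to 17 falls and 6 rises, those of their transcription factors to 10 and 2 and those of pan-leukocyte genes to 0 and 2. Depth limited Lyve1, with 5 counts over the control and 2 over the TgAPPsweOCN libraries, and Vsig4, with 19 and 7. With no filter beyond 1 count, edgeR gave them adjusted p = 0.48 and 0.131.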

Other observations

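Genes that respond to glucocorticoid or interleukin-10, the signals best known to raise Cd163, moved in both directions in TgAPPsweOCN libraries. Of 14 tested, 4 rose and 3 fell in edgeR, with a median log2 fold change of -0.33. Zbtb16 fell from 0.8 to 0.103 FPKM (-2.74), and so did Sgk1, a kinase (-1.4), and Tsc22d3, which encodes the glucocorticoid-induced protein GILZ (-1.28). The acute-phase gene Saa3 went from 117 ± 58.5 to 5600 ± 1850 FPKM (5.79), and Socs3 (1.68), Bcl3 (1.53) and Il4ra (1.03, or 0.82 with scaling by library size alone) rose as well. Socs3 is also in the inflammatory list and Il4ra in that of interleukin-4. Klf9 (-0.52), Per1 (-0.37), Dusp1 (-0.29) and Fkbp5 (0.21) were not called. The receptor chains Il10ra and Il10rb had -0.49 and -0.74 and the glucocorticoid receptor Nr3c1 0.29, all below the fold threshold. Whether either signal had a part in the fall of Cd163 was not tested.

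Ligands, cargo and processing partners of the 9 markers gave 4 rises and 3 falls among 20 tested, with a median of -0.09. C3 (1.9), the source of the complement ligand of Vsig4, and Cfb (5.45), which helps to cleave it, rose. Hp, the haptoglobin that Cd163 clears together with haemoglobin, went from 10.9 ± 4.33 to 54.2 ± 12 FPKM (2.53), and Mmp14 rose by 1.43. Gas6 (-1.57), Has3 (-1.51), a hyaluronan synthase, and Mfge8 (-1.49), a bridge to dying cells, fell. Sparc, a ligand of Stab1, had -0.39, below the fold threshold.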
